A study of Mus musculus with 6 samples.

Results

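Slc7a11, the cystine transporter subunit, and the antioxidant genes around the transcription factor NRF2 were followed through the tumor stages at which lung mesenchymal stromal cells (LMSCs) were taken. The set holds 10 genes (Slc7a11, Hmox1, Nqo1, Gclm, Gclc, Txnrd1, Srxn1, Gpx4, Nfe2l2 and Keap1) of the 34745 genes with a value. They were chosen by name, after the measured levels of these same libraries were known, so their differences between stages are given as a description. Members past a threshold are counted only to stand beside the share of all fitted genes.

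The cells came from the lungs of MMTV-PyMT mice, in which the mouse mammary tumor virus promoter drives the polyoma middle T antigen in mammary epithelium, so that mammary tumors arise and spread to the lung. A-LMSCs were from mice at the adenoma stage (labelled 6 to 7 weeks old), PM-LMSCs from the pre-metastatic stage (9 to 10 weeks) and M-LMSCs from the metastatic stage (13 to 14 weeks). The study's methods give slightly older mice for the adenoma and pre-metastatic stages. Age rises with stage, so their effects cannot be told apart. Digested lung cells were grown in DMEM with serum, adherent cells were depleted of CD45-positive cells with magnetic beads, and RNA was taken at passage 3. RNA-seq libraries numbered 2 per stage, 6 in all, and a further library per stage used in the study was not analysed here. The study describes several mice per stage for its RNA-seq heatmap, but the labels do not tie a library to an animal or culture, so p-values measure only the spread between these samples.

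Levels are in FPKM, fragments per kilobase of transcript and mega-fragment sequenced, so that genes of different length can be set side by side. Differences are on the log2(FPKM + 1) scale, which understates the change of genes near or below 1 FPKM. Depths, estimated from the steps between low values, were 20.8 and 17.35 mega-fragments for A-LMSCs, 14.85 and 15.85 mega-fragments for PM-LMSCs and 16.65 and 16.5 mega-fragments for M-LMSCs. All 10 genes averaged at least 1 FPKM and so were among the 10279 genes fitted with limma, but Slc7a11 passed that filter only through the M-LMSC libraries, as did Anpep and Lpxn among the other genes named.

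All 12 mesenchymal markers examined were above 1 FPKM in every library, as the labelled cell type would have. Col1a1, a chain of type I collagen, was the most abundant of them, between 761 and 1472 FPKM, and Ly6a, which encodes Sca-1, the least, between 1.99 and 5.74 FPKM. Ptprc, which encodes the CD45 used for depletion, stayed between 0.0254 and 0.0987 FPKM. Pecam1, an endothelial marker, did not exceed 0.0337 FPKM. Other markers of the same cell types were higher, among them the myeloid Lyz2, between 60.6 and 362 FPKM, Tyrobp, between 3.12 and 13.1 FPKM, and Cd68, between 5.48 and 12.2 FPKM, and the endothelial Kdr, between 1.11 and 2.31 FPKM.

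As background, NRF2, encoded by Nfe2l2, is held at a low protein level by KEAP1, which presents it for degradation, and electrophiles or oxidants that modify KEAP1 let it accumulate and bind antioxidant response elements with small MAF partners. Its targets include the glutamate-cysteine ligase subunits, the heme oxygenase HO-1, the quinone reductase NQO1 and thioredoxin reductase. System xc-, made of the light chain SLC7A11 and the heavy chain SLC3A2, brings cystine into the cell in exchange for glutamate and so feeds glutathione synthesis, and SLC7A11 is also a target of ATF4, the factor of the amino acid response.

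Slc7a11 (ENSMUSG00000027737, chr3:49892526-50443614, minus strand, GRCm38) was at 0.370 and 0.284 FPKM in A-LMSC replicates 1 and 2. It was at 0.388 and 0.321 FPKM in the PM-LMSC libraries and at 3.25 and 5.06 FPKM in the M-LMSC libraries. Both M-LMSC libraries were thus far above the other 4, while the A-LMSC and PM-LMSC values overlapped. The means were 0.327 ± 0.0607, 0.354 ± 0.0475 and 4.16 ± 1.29 FPKM (SD, n = 2 each), a ratio of 12.7 between M-LMSCs and A-LMSCs. Replicate by replicate the ratio was 8.78 for the libraries numbered 1 and 17.8 for those numbered 2, so its size varied more than its direction. On the log2 scale the difference was 1.94 (SE 0.18) between M-LMSCs and A-LMSCs, 1.91 (SE 0.18) between M-LMSCs and PM-LMSCs and 0.03 (SE 0.18) between PM-LMSCs and A-LMSCs. With a pseudocount of 0.1 in place of 1, the differences of M-LMSCs from A-LMSCs and from PM-LMSCs were 3.29 and 3.20. Of the 10279 genes, 8 had a larger rise in M-LMSCs against A-LMSCs. In bulk RNA a change in the number of cells that express a gene and a change in RNA per cell cannot be told apart.

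**Figure D1:**
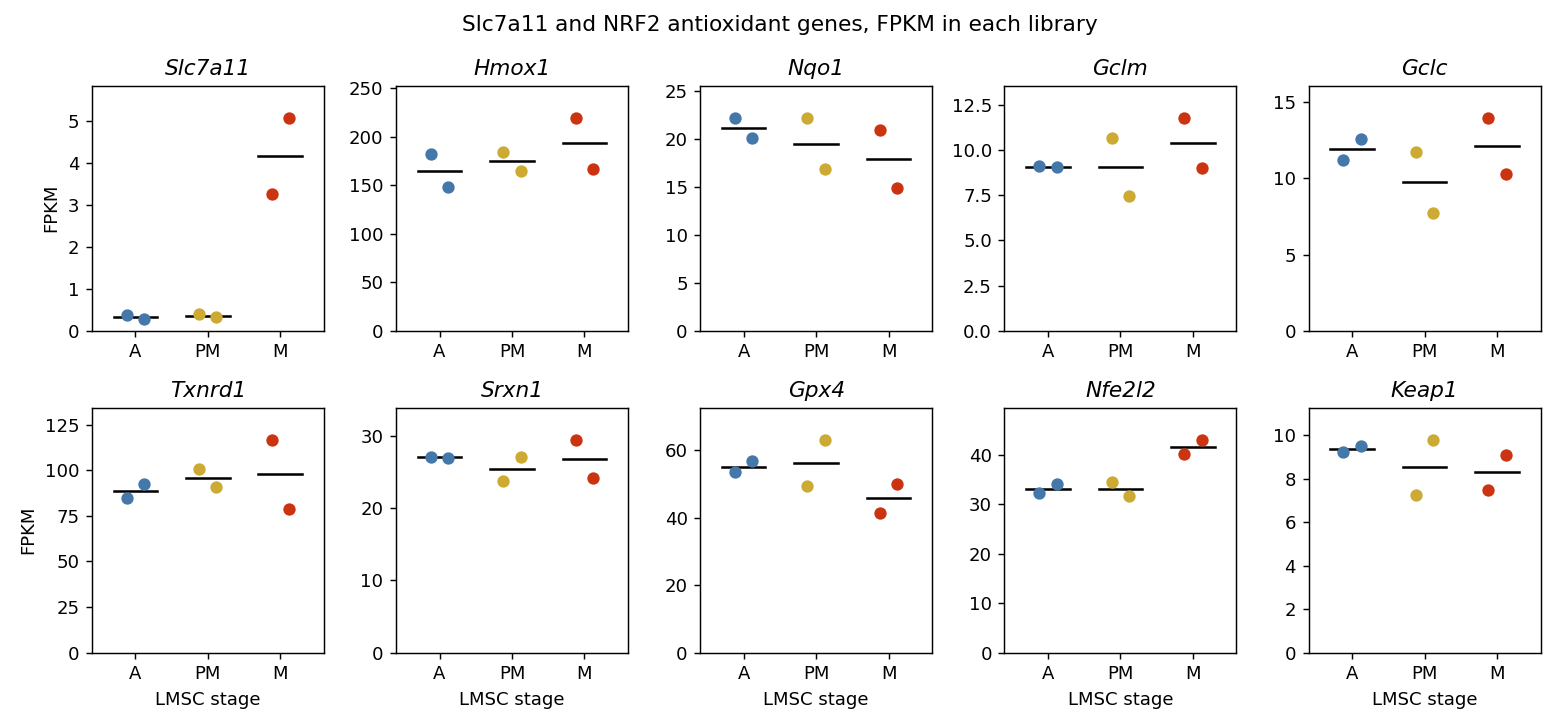
FPKM of the 10 genes in each library (y axis, from 0, own scale per gene) at the A-LMSC, PM-LMSC and M-LMSC stages (x axis). Each point is a library, replicate 1 at the left, and the line is the mean of the 2 libraries. Slc7a11 stood at 3.25 and 5.06 FPKM at the metastatic stage and at 0.388 FPKM or less elsewhere, and Nfe2l2 was also highest in both M-LMSC libraries.

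The number of fragments behind the Slc7a11 values depends on the transcript. For the longer coding transcript of 9223 bases, the estimated depths give 70.9 and 45.4 fragments in A-LMSCs, 53.1 and 46.9 in PM-LMSCs and 499 and 771 in M-LMSCs. For the shorter coding transcript of 2419 bases they give 11.9 to 18.6 fragments in each of the earlier libraries and 131 and 202 in M-LMSCs. These numbers are the FPKM values scaled by length and depth, and precision was least where the values were low. Some of these fragments may come from the shared stretch described next.

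The longer Slc7a11 transcript also carries a stretch of 373 bases that is 96.0% identical to Tuba1a, 96.2% to Tuba1b and 95.4% to Tuba1c, the alpha-tubulin genes, and fragments from such a stretch can be assigned to either gene. Tuba1b was at 705 and 774 FPKM at the adenoma stage, 592 and 638 FPKM at the pre-metastatic stage and 469 and 410 FPKM at the metastatic stage. Tuba1c was at 597 and 626, 518 and 598, and 389 and 404 FPKM in the same order, and Tuba1a at 469 and 530, 404 and 511, and 360 and 423 FPKM. All 3 tubulin genes thus had lower means in M-LMSCs than in A-LMSCs, the opposite direction to Slc7a11, and how much of the low Slc7a11 values in the earlier stages came from them was not tested.

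Near Slc7a11 on chromosome 3, the 7 other fitted genes within 1000000 bases had log2 differences in M-LMSCs against A-LMSCs from -0.37 for Mgarp to 0.23 for 4930577N17Rik. Pcdh18, a protocadherin gene next to Slc7a11, was at 2.81 and 2.55 FPKM at the adenoma stage, 2.13 and 2.29 FPKM at the pre-metastatic stage and 2.98 and 1.96 FPKM at the metastatic stage, so that the M-LMSC values lay on either side of all the others.

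Slc3a2, the heavy chain partner of SLC7A11 and of other amino acid transporters, was at 32.2 and 29.6 FPKM at the adenoma stage. It was at 24.6 and 32.2 FPKM at the pre-metastatic stage and at 24.5 and 31.5 FPKM at the metastatic stage. The stages overlapped, with a log2 difference of -0.15 (SE 0.17) in M-LMSCs against A-LMSCs, and in every library Slc3a2 was far more abundant per length than Slc7a11.

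NRF2 itself is encoded by Nfe2l2 (chr2:75675513-75704641, minus strand). It was at 32.2 and 34.2 FPKM at the adenoma stage, 34.5 and 31.8 FPKM at the pre-metastatic stage and 40.2 and 43.1 FPKM at the metastatic stage. After Slc7a11 it was the other member with both M-LMSC libraries above the remaining 4, with means of 33.2 ± 1.37, 33.1 ± 1.90 and 41.7 ± 2.04 FPKM (SD, n = 2 each) and a ratio of 1.25 between M-LMSCs and A-LMSCs. The log2 difference was 0.32 (SE 0.11) against either earlier stage. Both M-LMSC libraries were above the other 4 in 11.8% of the fitted genes (1214 of 10279) and below them in 11.6% (1197), beside which 2 of the 10 members were above and 0 below. Of all fitted genes, 11.2% had a larger positive log2 difference than Nfe2l2 in M-LMSCs against A-LMSCs.

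Keap1 (chr9:21229730-21239361, minus strand), the adaptor that targets NRF2 for degradation, was at 9.22 and 9.51 FPKM at the adenoma stage, 7.25 and 9.79 FPKM at the pre-metastatic stage and 7.49 and 9.07 FPKM at the metastatic stage. Its stages overlapped, except that both M-LMSC values lay below both A-LMSC values, and the log2 difference of -0.16 (SE 0.16) between these stages was the size of its standard error. An exon of the antisense gene Gm16754 overlaps Keap1 over 510 bases, so their fragments may not be separable, although Gm16754 did not exceed 1.19 FPKM.

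Glutamate-cysteine ligase, the enzyme that begins glutathione synthesis, has a catalytic subunit encoded by Gclc (chr9:77754535-77794485) and a modifier subunit encoded by Gclm (chr3:122245557-122270732), both on the plus strand. Gclc was at 11.2 and 12.6 FPKM at the adenoma stage, 11.7 and 7.72 FPKM at the pre-metastatic stage and 14.0 and 10.3 FPKM at the metastatic stage. Gclm was at 9.09 and 9.06 FPKM at the adenoma stage, 10.6 and 7.47 FPKM at the pre-metastatic stage and 11.8 and 9.01 FPKM at the metastatic stage. For each subunit the 2 libraries of a later stage differed more than the stage means did. Replicate 1 was above replicate 2 by a ratio of 1.52 for Gclc and 1.42 for Gclm in PM-LMSCs and of 1.36 and 1.31 in M-LMSCs. The log2 differences between M-LMSCs and A-LMSCs were 0.01 (SE 0.22) for Gclc and 0.17 (SE 0.19) for Gclm. Across the 6 libraries the 2 subunits had a Pearson correlation of 0.872 on the log2 scale, a description of libraries that share stages and replicate numbers.

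Hmox1 (chr8:75093621-75100589, plus strand), which encodes the heme-degrading enzyme HO-1, was the most abundant of the 10 genes. It was at 182 and 148 FPKM at the adenoma stage, 185 and 164 FPKM at the pre-metastatic stage and 220 and 167 FPKM at the metastatic stage. The stages overlapped and replicate 1 was the higher library at each, by ratios of 1.23, 1.12 and 1.32, and the ratio of the M-LMSC to the A-LMSC mean was 1.17. Within replicate numbers that ratio was 1.20 for replicate 1 and 1.13 for replicate 2. Nqo1 (chr8:107388225-107403206, minus strand), which reduces quinones, was at 22.2 and 20.1 FPKM at the adenoma stage, 22.1 and 16.9 FPKM at the pre-metastatic stage and 20.9 and 14.9 FPKM at the metastatic stage. Replicate 1 was again the higher at each stage, and the ratio of M-LMSC to A-LMSC was 0.943 for replicate 1 and 0.739 for replicate 2. The log2 difference between M-LMSCs and A-LMSCs was -0.25 (SE 0.20), beside 0.22 (SE 0.18) for Hmox1.

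Txnrd1 (chr10:82833951-82897712, plus strand), the cytosolic thioredoxin reductase, was at 85.1 and 92.4 FPKM at the adenoma stage, 101 and 90.6 FPKM at the pre-metastatic stage and 117 and 78.9 FPKM at the metastatic stage. Its M-LMSC libraries were the highest and the lowest of the 6. Srxn1 (chr2:152105516-152111376, plus strand), which encodes sulfiredoxin, the enzyme that repairs overoxidized peroxiredoxins, was at 27.1 and 26.9 FPKM at the adenoma stage, 23.8 and 27.1 FPKM at the pre-metastatic stage and 29.5 and 24.2 FPKM at the metastatic stage. Its A-LMSC values lay inside the range of the M-LMSC values, and the log2 difference between these stages was -0.02 (SE 0.13) for Srxn1 and 0.11 (SE 0.19) for Txnrd1.

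Gpx4 (chr10:80047166-80056439, plus strand), the glutathione peroxidase that reduces lipid hydroperoxides and restrains ferroptosis, was at 53.5 and 56.7 FPKM at the adenoma stage, 49.5 and 63.2 FPKM at the pre-metastatic stage and 41.4 and 50.1 FPKM at the metastatic stage. Both M-LMSC values were below both A-LMSC values but not below both PM-LMSC values, and the log2 difference between M-LMSCs and A-LMSCs was -0.27 (SE 0.16). Gpx4 shares 762 bases at 99.7% identity with the pseudogene Gpx4-ps2, so its level is uncertain to the extent that fragments were divided between them.

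Leaving Slc7a11 aside, the log2 differences of the other 9 genes in M-LMSCs against A-LMSCs ran from -0.27 (Gpx4) to 0.32 (Nfe2l2), with a median of 0.01 beside 0.03 over all fitted genes. In PM-LMSCs against A-LMSCs they ran from -0.29 (Gclc) to 0.10 (Txnrd1), with a median of -0.02 beside 0.01. These comparisons share the A-LMSC libraries. In M-LMSCs against A-LMSCs 1 of the 10 members was past an adjusted p of 0.05, where 0.0681% of all fitted genes were (7 of 10279), and with the replicate number as a block it was also 1, where 3.92% were (403). In M-LMSCs against PM-LMSCs it was 0 (limma), where 0.0292% were (3 of 10279), and 1 with the block, where 0.418% were (43). At an unadjusted p under 0.05 (limma without the block) 2 members passed, beside 919 of the 10279 fitted genes. In PM-LMSCs against A-LMSCs the number past an adjusted p of 0.05 was 0 without the block and 0 with it (limma), where 0.0389% (4 of 10279) and 0.292% (30) were. At an unadjusted p under 0.05 (limma) it was 0 in both fits, beside 671 of the fitted genes without the block and 1415 with it. Nothing is read from these counts, since the members were chosen on the same values. A level above both A-LMSC libraries in all 4 later libraries, seen in 10.7% of the fitted genes (1103), occurred in 0 members.

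By mean level over the 6 libraries the order was Hmox1 (177.6 FPKM), Txnrd1 (94.1), Gpx4 (52.4), Nfe2l2 (36.0), Srxn1 (26.4), Nqo1 (19.5), Gclc (11.3), Gclm (9.51), Keap1 (8.72) and Slc7a11 (1.61). The library ranges of Gclc, Gclm and Keap1 overlapped, as did those of Gpx4 and Nfe2l2, while the other neighbours in this order did not overlap. Slc7a11 was the least abundant of the 10 in every library, M-LMSCs included.

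Over the 6 libraries the level of Slc7a11 had Pearson correlations of 0.966 with Nfe2l2, 0.387 with Hmox1, 0.368 with Gclm, 0.220 with Gclc, -0.519 with Nqo1 and -0.650 with Gpx4 (log2 scale, n = 6, libraries that share stages). With only the M-LMSC libraries high, any gene that is higher in both of them has a large value, so the figure for Nfe2l2 restates that pattern. The fitted genes outside the set with a pattern most like Slc7a11 were Jkamp (0.993), Vmp1 (0.992), Polr3gl (0.990), Spsb1 (0.989) and Lpxn (0.989). Their changes were smaller: Spsb1 was at 6.85 and 6.21, 6.65 and 6.14, and 9.34 and 10.5 FPKM at the adenoma stage, PM-LMSCs and M-LMSCs, and Lpxn, which encodes leupaxin, at 0.573 and 0.682, 0.687 and 0.564, and 1.66 and 2.55 FPKM. Being picked for this pattern, these genes are given without a test. Those most like Hmox1 were Npy1r (0.992), Tmem2 (0.992), Rsrp1 (0.989), Vezf1 (0.988) and Zfp9 (0.988), and none of these appears among the genes most like Slc7a11. Npy1r, a neuropeptide Y receptor, was at 5.52 and 3.15 FPKM at the adenoma stage, 5.54 and 3.81 FPKM at the pre-metastatic stage and 7.94 and 4.31 FPKM at the metastatic stage, with replicate 1 the higher at each stage, as for Hmox1.

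Other genes of the pathway were taken from 8 lists with 151 genes in all, of which 149 were in the table and those averaging at least 1 FPKM were fitted. Without the block, 0 of these passed an adjusted p of 0.05 in any of the 3 comparisons (limma), and 8, 14 and 14 had an unadjusted p under 0.05 in PM-LMSCs against A-LMSCs, M-LMSCs against A-LMSCs and M-LMSCs against PM-LMSCs. With the replicate number as a block, 5 pathway genes were higher and 0 lower in M-LMSCs against A-LMSCs, 4.10% of those fitted beside 3.92% of all fitted genes. The labels do not say what a replicate number marks, so every call with the block rests on an assumed pairing. In the other comparisons 0 passed with the block (limma). At an unadjusted p under 0.05 (limma with the block) 12 pathway genes passed in PM-LMSCs against A-LMSCs, beside 1415 of all fitted genes. In M-LMSCs against A-LMSCs 28 did, beside 2498, and in M-LMSCs against PM-LMSCs 20 did, beside 1645. Of the 5, Anpep was fitted only because it was high in M-LMSCs, so its call is no support. As for all fitted genes, the counts of pathway genes past the threshold in both M-LMSC comparisons moved when either M-LMSC library was left out. The median log2 difference in M-LMSCs against A-LMSCs was 0.03 over these genes and 0.03 over all fitted genes. Both M-LMSC libraries were above the other 4 for 18 of these genes (14.8%, beside 11.8% of all) and below them for 5 (4.10%, beside 11.6%).

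**Figure D2:**
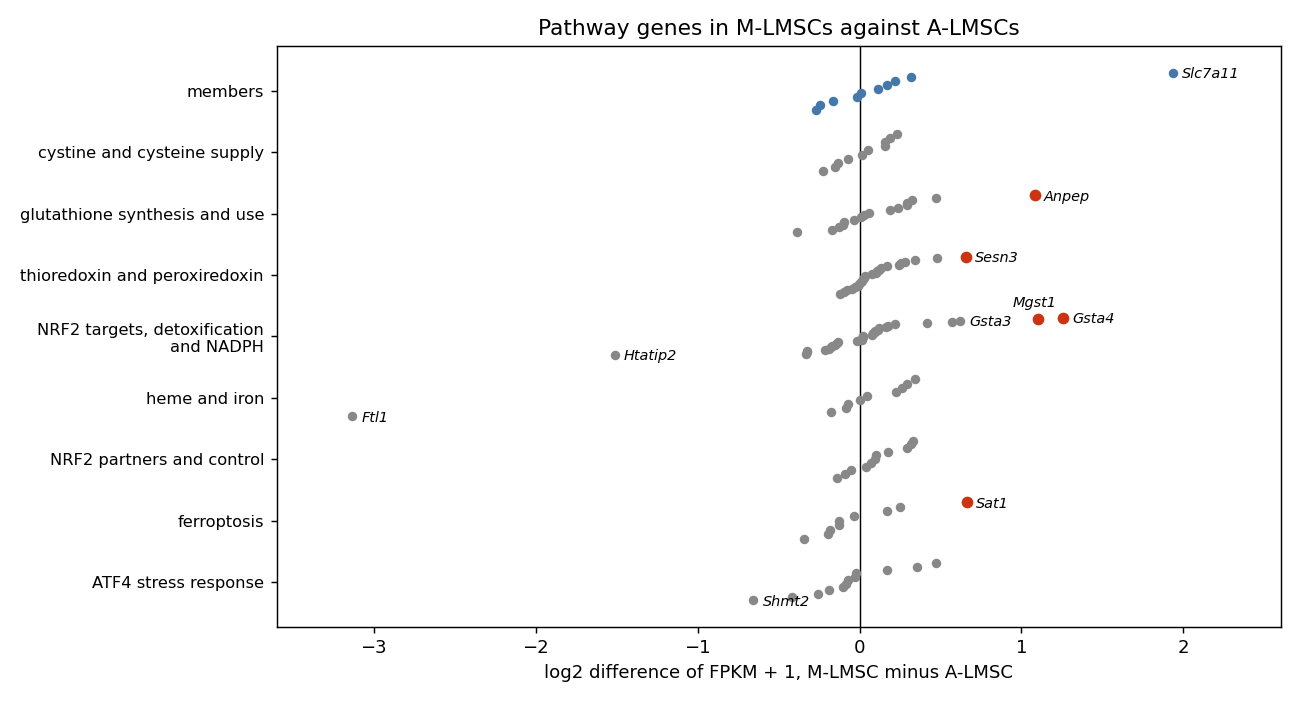
Difference of log2(FPKM + 1) between M-LMSCs and A-LMSCs (x axis, positive when higher in M-LMSCs) for the 10 members, in blue, and the fitted genes of the 8 pathway lists (1 band each, in order of size within a band). Red points had an adjusted p under 0.05 with the replicate number as a block, gray points did not, and members are not marked by p. Slc7a11 lies at 1.94, and the other members between -0.27 and 0.32.

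Of the 30 fitted NRF2 target enzymes, the glutathione transferases Gsta4, Mgst1 and Gsta3 had the largest positive differences in M-LMSCs against A-LMSCs. The log2 differences of the other fitted transferases were 0.07 for Gstm2, 0.02 for Gstm5, 0.02 for Gstt1, -0.17 for Gstm1, -0.32 for Gstp1 and -0.33 for Mgst3. Gsta4, which conjugates lipid peroxidation products such as 4-hydroxynonenal, was at 28.4 and 21.8 FPKM at the adenoma stage, 41.5 and 44.7 FPKM at the pre-metastatic stage and 54.4 and 68.1 FPKM at the metastatic stage. The stages did not overlap and lay in the order of tumor stage, with a log2 difference of 1.26 (SE 0.17) in M-LMSCs against A-LMSCs, whose adjusted p was 0.0774 in limma and 0.0177 with the block. Mgst1, a membrane-bound transferase, was at 7.26 and 7.65, 11.4 and 13.3, and 14.7 and 20.0 FPKM, in the same order (log2 difference 1.10, SE 0.16; limma adjusted p 0.0875, and 0.0157 with the block). Gsta3 was at 0.313 and 0.734 FPKM at the adenoma stage, 1.61 and 1.85 FPKM at the pre-metastatic stage and 0.878 and 1.87 FPKM at the metastatic stage, and passed in neither fit. Trim16 was at 5.29 and 5.98, 10.7 and 8.86, and 10.96 and 7.12 FPKM, above A-LMSCs in all 4 later libraries and likewise past the threshold in neither fit. In PM-LMSCs, where Slc7a11 stood at its A-LMSC level, Gsta4 and Mgst1 had log2 differences against A-LMSCs of 0.77 and 0.66 that passed in neither fit (limma adjusted p 0.359 and 0.449, and 0.118 and 0.0871 with the block).

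Among the 16 fitted genes of glutathione synthesis and use, Anpep, an aminopeptidase that can act on the cysteinylglycine released from glutathione, was at 0.747 and 0.872 FPKM at the adenoma stage, 1.16 and 0.832 FPKM at the pre-metastatic stage and 2.53 and 3.15 FPKM at the metastatic stage. The log2 difference of M-LMSCs against A-LMSCs was 1.08 (SE 0.14). Like Slc7a11, Anpep averaged under 1 FPKM over the other 4 libraries and passed the filter through the M-LMSC libraries, so this difference is a description. Gpx3, the secreted glutathione peroxidase, was at 73.2 and 43.2, 44.6 and 57.2, and 72.4 and 84.8 FPKM, so that both M-LMSC values were above both PM-LMSC values while M-LMSC replicate 1 was below A-LMSC replicate 1. Gpx1, the cytosolic one, was at 105 and 74.1, 91.7 and 79.2, and 57.4 and 79.4 FPKM. Glrx3, Gpx8 and Gsr had log2 differences between -0.03 and 0.29 in M-LMSCs against A-LMSCs, and the median of the list was 0.04.

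Of the 24 thioredoxin and peroxiredoxin genes, Sesn3, which encodes a sestrin, was at 3.22 and 3.17 FPKM at the adenoma stage, 4.01 and 4.19 FPKM at the pre-metastatic stage and 5.20 and 6.05 FPKM at the metastatic stage. The metastatic stage exceeded the adenoma stage by 0.66 on the log2 scale (SE 0.12; limma adjusted p 0.106, and 0.0284 with the block). Sesn1, a related sestrin, was at 2.78 and 3.40, 2.97 and 2.90, and 4.34 and 5.07 FPKM, highest in both M-LMSC libraries but past the threshold in neither fit (log2 difference 0.48, SE 0.13). The list had a median of 0.06, and its lowest difference was -0.12.

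The 10 fitted genes of cystine and cysteine supply, which surround Slc7a11 in function, had log2 differences in M-LMSCs against A-LMSCs between -0.23 (Slc1a5) and 0.23 (Mat2a), with a median of 0.03. Cth, cystathionine gamma-lyase of the transsulfuration route to cysteine, was at 3.34 and 3.19 FPKM at the adenoma stage, 2.41 and 2.48 FPKM at the pre-metastatic stage and 3.33 and 3.30 FPKM at the metastatic stage. No other gene of this list approached the difference of Slc7a11. Slc7a9, a further light chain of cystine transport, was listed at 0 in all 6 libraries.

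ATF4 and its targets were examined because Slc7a11 is among those targets. Atf4 was at 172 and 183 FPKM at the adenoma stage, 142.3 and 169 FPKM at the pre-metastatic stage and 149 and 188 FPKM at the metastatic stage. Both PM-LMSC values were below both A-LMSC values, while the M-LMSC values spanned the range of the A-LMSCs, with a log2 difference of -0.08 (SE 0.15) in M-LMSCs against A-LMSCs. Trib3 was at 18.4 and 20.97, 12.3 and 20.0, and 9.59 and 29.8 FPKM, and Ddit3, which encodes CHOP, at 16.8 and 17.4, 18.2 and 19.6, and 17.7 and 32.7 FPKM. Trib3 and Ddit3 thus separated the 2 M-LMSC libraries from each other, with replicate 2 the higher, as it was at each earlier stage. For Slc7a11 replicate 2 was the higher in M-LMSCs only. In A-LMSCs and PM-LMSCs its replicate 1 was the higher, by ratios of 1.30 and 1.21. Psat1 and Shmt2, enzymes of serine and one-carbon metabolism, had log2 differences of -0.41 (SE 0.16) and -0.66 (SE 0.28), neither past the threshold. The median of the 12 genes was -0.08.

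The 11 fitted genes of NRF2's partners and regulators had log2 differences from -0.14 (Pgam5) to 0.33 (Bach1) in M-LMSCs against A-LMSCs and from -0.49 (Pgam5) to 0.52 (Mafg) in M-LMSCs against PM-LMSCs, where 3.78% of all fitted genes were past 0.5 in size. Bach1, which encodes a repressor that competes with NRF2 at Hmox1, was at 3.41 and 2.78 FPKM at the adenoma stage, 4.33 and 3.21 FPKM at the pre-metastatic stage and 4.39 and 3.89 FPKM at the metastatic stage. Gsk3b was at 5.48 and 4.90, 6.53 and 4.43, and 6.88 and 6.55 FPKM. Among the small MAF genes, Maff was at 83.9 and 90.7, 109 and 107, and 106 and 79.1 FPKM. None of the 11 passed in either fit (limma). At an unadjusted p under 0.05 (limma) in M-LMSCs against A-LMSCs, 0 did without the block and 3 with it, beside 1504 and 2498 of all fitted genes. In M-LMSCs against PM-LMSCs these numbers were 2 and 2, beside 919 and 1645.

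Among 9 fitted genes tied to ferroptosis, Sat1, a polyamine acetyltransferase, was at 18.6 and 17.2 FPKM at the adenoma stage, 25.8 and 22.6 FPKM at the pre-metastatic stage and 30.7 and 27.1 FPKM at the metastatic stage. The stages did not overlap (log2 difference of M-LMSCs against A-LMSCs 0.66, SE 0.12, limma adjusted p 0.106, and 0.0228 with the block). Sat1 shares 515 bases at 96.7% identity with Gm5552 and 474 bases at 95.8% with Gm46610, so its level is uncertain to that extent. Acsl4, which loads polyunsaturated fatty acids for membrane lipids, was at 8.94 and 8.37, 15.0 and 10.8, and 12.7 and 8.66 FPKM. Ptgs2, which encodes cyclooxygenase-2, was at 70.5 and 56.7, 128 and 67.1, and 103 and 32.4 FPKM, so that replicate 1 exceeded replicate 2 at each stage by more than the stage means differed between M-LMSCs and A-LMSCs. The log2 differences of the list in M-LMSCs against A-LMSCs ran from -0.34 (Gch1) to 0.66 (Sat1), with a median of -0.12.

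Beside Hmox1, the 10 fitted genes of heme and iron handling had a median log2 difference of 0.02 in M-LMSCs against A-LMSCs. Ftl1, the ferritin light chain, was at 1344 and 1289 FPKM at the adenoma stage, 1195 and 1261 FPKM at the pre-metastatic stage and 48.0 and 459 FPKM at the metastatic stage (log2 difference -3.13, SE 0.90, limma adjusted p 0.209, and 0.0621 with the block). It shares 910 bases at 99.6% identity with Ftl1-ps1 and 552 bases at 98.7% with Ftl2-ps, which reached 2123 FPKM, so the level of Ftl1 is uncertain. Without M-LMSC replicate 1 the difference of Ftl1 was -1.52 and without M-LMSC replicate 2 it was -4.75. Each of these values rests on 1 M-LMSC library, so the wide gap between the M-LMSC libraries is left out of it. Ncoa4, the receptor for ferritin breakdown, which shares 1878 bases with Gm6768, was at 3.31 and 3.495, 4.66 and 3.87, and 4.38 and 4.80 FPKM, and Blvrb, a biliverdin reductase, had a log2 difference of 0.23 (SE 0.16).

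The markers of other cell types are given as values, without a test. Of 12 haematopoietic markers, 11 were highest in both M-LMSC libraries, as Slc7a11 was, among them all 7 that were fitted, where 11.8% of all fitted genes were. Their summed level was 138 and 129 FPKM at the adenoma stage, 174 and 80.1 FPKM at the pre-metastatic stage and 413 and 301 FPKM at the metastatic stage. The most abundant was Lyz2, and without it the sums were 22.7 and 23.1, 27.3 and 19.5, and 50.9 and 51.1 FPKM. The exception was Ptprc, at 0.0987 and 0.0492 FPKM at the metastatic stage, and Cd52 was listed at 0 in PM-LMSC replicate 2. Myeloid cells are known to express SLC7A11 and HO-1, and the part of such cells in the Slc7a11 difference was not tested.

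Of 10 epithelial markers, 5 were highest in both M-LMSC libraries, but 0 of the 3 that were fitted (11.8% of all fitted genes were), with sums of 17.6 and 24.3 FPKM at the adenoma stage, 18.8 and 28.03 FPKM at the pre-metastatic stage and 16.4 and 29.0 FPKM at the metastatic stage. The most abundant was Krt19, which was lower at each later stage, and without it the sums were 3.74 and 6.95, 10.7 and 18.8, and 11.5 and 24.6 FPKM, higher in all 4 later libraries than in the A-LMSC libraries. The defining marker Epcam was listed at 0 in all A-LMSC and PM-LMSC libraries and was at 0.326 and 0.473 FPKM at the metastatic stage. Of 8 endothelial markers, 3 were highest in both M-LMSC libraries, among them Kdr, the only fitted one (again beside 11.8%), with sums of 1.77 and 1.74, 1.74 and 1.77, and 3.01 and 2.74 FPKM, so that both M-LMSC libraries stood above the other 4. Without the most abundant, Kdr, the sums were 0.656 and 0.576, 0.433 and 0.328, and 0.788 and 0.429 FPKM, with Cldn5 listed at 0 in both PM-LMSC libraries and in M-LMSC replicate 2, and Tie1 at 0 in A-LMSC replicate 1 and M-LMSC replicate 2. Of 8 mesothelial markers, 7 of them fitted, 0 were highest in both M-LMSC libraries (beside 11.8%). Their sums were 48.9 and 74.5 FPKM at the adenoma stage, 131 and 201 FPKM at the pre-metastatic stage and 94.6 and 258 FPKM at the metastatic stage. Upk3b was the most abundant and Muc16 was listed at 0 in A-LMSC replicate 1. The fitted Upk3b, Wt1, Lrrn4, Krt7 and Gpm6a were above both A-LMSC libraries in all 4 later libraries, where 10.7% of all fitted genes were. So was Muc16, which was not fitted, but Msln and Rspo1 were not. The part of epithelial, endothelial or mesothelial cells in the levels of Slc7a11 and the NRF2 genes was not tested.

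The 250 bases before the annotated start were read from RefSeq (build GRCm38.p6), which matched 8 of the 10 members with 13 promoters, Hmox1 and Gclc having no entry. The letters TGATGCAA, the core of the amino acid response element bound by ATF4 with its partners, occurred on either strand in 0.791% of all 32851 promoters of this length (260) and at least 2 times in 0.00609%, which were those of Slc7a11 and Chchd10. In Slc7a11 they lie 66 to 59 bases before the start on the sense strand (chr3:50443672-50443679) and 47 to 40 bases before it on the antisense strand (chr3:50443653-50443660). The Slc7a11 promoter (chr3:50443614-50443863, minus strand) is shown because both copies stand in it, with the letters in capitals as they read on the sense strand. It is printed 5′ to 3′.
Slc7a11 promoter: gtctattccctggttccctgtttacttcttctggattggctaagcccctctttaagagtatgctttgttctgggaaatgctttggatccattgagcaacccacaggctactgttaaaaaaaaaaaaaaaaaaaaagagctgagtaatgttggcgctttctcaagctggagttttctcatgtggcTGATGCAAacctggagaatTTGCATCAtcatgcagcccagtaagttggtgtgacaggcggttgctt

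The core of the antioxidant response element was searched as TGACNNNGC, found in 10.2% of all promoters (3338), and in a wider form TGANNNNGC, found in 35.2% (11563), which includes every match of the former. The stricter form occurred in Gclm, in Nfe2l2 and in 1 of the 3 starts of Txnrd1. The wider form also occurred in Srxn1, Keap1, Slc7a11 and a further start of Txnrd1, so that 7 of the 13 promoters of members held it, and 3 of the 13 the stricter form. Srxn1 held it at 3 places. In Slc7a11 it occurred at 2 places, chr3:50443702-50443710 and chr3:50443650-50443658, the latter overlapping the antisense TGATGCAA. None of these letters occurred in the windows of Nqo1, Gpx4 (4 starts) or Slc3a2, which says only that they are not in these 250 bases. All 10 matches of the wider form, the 3 stricter ones first, are shown so that the cores can be compared side by side, each 5′ to 3′ on the strand that reads the core, with the core in capitals. They lie, in the order shown, at chr3:122245423-122245431 (Gclm, minus strand), chr10:82859114-82859122 (Txnrd1, minus strand), chr2:75704895-75704903 (Nfe2l2, minus strand), chr10:82860257-82860265 (Txnrd1, minus strand), chr2:152105366-152105374 and chr2:152105467-152105475 (Srxn1, minus strand), chr2:152105479-152105487 (Srxn1, plus strand), chr9:21239385-21239393 (Keap1, plus strand) and chr3:50443702-50443710 and chr3:50443650-50443658 (Slc7a11, plus strand).
Gclm: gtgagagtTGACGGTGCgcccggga
Txnrd1: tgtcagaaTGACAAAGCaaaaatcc
Nfe2l2: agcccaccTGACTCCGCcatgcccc
Txnrd1: ctggaatcTGAAACCGCgggcaaaa
Srxn1: agagaggaTGAGTCGGCtctcagta
Srxn1: actcagggTGAATTTGCaggtcgcg
Srxn1: attcacccTGAGTCAGCggccgggc
Keap1: cctccagcTGAACCTGCaccggcgg
Slc7a11: ctccagctTGAGAAAGCgccaacat
Slc7a11: gggctgcaTGATGATGCaaattctc
A match is a description of the sequence and not a bound site.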

How the data were processed

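RNA-seq of LMSCs was analysed in 2 libraries each of A-LMSCs, PM-LMSCs and M-LMSCs, which the labels name E-LMSCs, L-LMSCs and M-LMSCs. The authors deposited FPKM values for 34745 Ensembl genes. The submitters' processing notes name TopHat2 2.0.9 and mm10. The counting tool and annotation are not given in the sources used here. Depths were read from the steps between low values of genes with a single transcript, of which 96.6% to 97.1% lay within 0.05 of a whole fragment. Genes of few fragments are the least precise.

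Genes averaging 1 FPKM or more (10279) were transformed as log2(FPKM + 1) and fitted with 1 mean per stage in R 4.3.3 with limma 3.58.1 (eBayes with trend), with Benjamini-Hochberg adjustment and a threshold of 0.05. The fit was tested on simulated data. The replicate numbers come from the sample titles. The labels do not say what a number marks, and the main fit does not pair the libraries. Deviations from the stage mean correlated between libraries of the same number at 0.238 (A-LMSC and PM-LMSC), 0.307 (A-LMSC and M-LMSC) and 0.491 (PM-LMSC and M-LMSC). The blocked fit, which pairs by number, is therefore given as an alternative only. Its pairing is assumed from these same values. Alternatives were a pseudocount of 0.1, no filter, quantile normalization, centering on the median, only the stages compared, the block, a minimum log2 fold change of 1, and each library left out.

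The members and lists were chosen with earlier results of these data known. Genes named are the 10 members, Slc3a2, Atf4, the cell type markers, pathway genes called in any comparison with or without the block, the up to 3 fitted genes per list with the largest absolute differences in M-LMSCs and in PM-LMSCs against A-LMSCs, and the 5 genes most correlated with Slc7a11 and with Hmox1. Others (the tubulin genes, Gstm1, Gstm2, Gstm5, Gstp1, Gstt1, Mgst3, Pcdh18, Mgarp, 4930577N17Rik, Slc7a9 and Chchd10) were named after their values were seen, and Ftl1-ps1, Ftl2-ps, Gpx4-ps2, Gm5552, Gm46610, Gm6768 and Gm16754 for shared sequence or overlap. Where a name was repeated (57 names, Itgam among them), its first entry was used. Positions are from GENCODE M21, copies from blastn 2.17.0 (95% identity or more across 200 bases or more), and other steps used Python 3.11.15 with pandas 2.3.3 and numpy 2.4.6.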

Additional observations from a re-analysis of the deposited data

Results flagged for a closer look

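For Htatip2 and Mafg, the PM-LMSC pair of libraries lay wholly to one side of the A-LMSC pair, and the M-LMSC pair to the other. Mafg, which encodes a small MAF partner of NRF2, was at 8.11 and 8.99 FPKM at the adenoma stage, 7.75 and 6.54 FPKM at the pre-metastatic stage and 10.4 and 10.9 FPKM at the metastatic stage, a log2 difference of 0.52 between M-LMSCs and PM-LMSCs (limma adjusted p 0.320, and 0.131 with the replicate block). Htatip2 was at 12.9 and 12.2 FPKM at the adenoma stage, 13.8 and 16.5 FPKM at the pre-metastatic stage and 1.16 and 9.46 FPKM at the metastatic stage, a log2 difference of -1.76 (limma adjusted p 0.510, and 0.179 with the block), and it came mostly from M-LMSC replicate 1. Whether the effects of the 2 later stages differ in direction was not tested beyond these values.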

How the results depend on the processing

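Counts of genes past the threshold moved with the processing, and the cause was not tested beyond what each setting leaves out. In M-LMSCs against A-LMSCs the count was 7, and it was 3 with no filter, 1 with only the stages compared, 403 with the replicate block and 1 to 90 with each library left out. In PM-LMSCs against A-LMSCs it was 4, and 1, 21, 30 and 1 to 28 under the same settings. In M-LMSCs against PM-LMSCs it was 3, and 43 with the replicate block and 2 to 25 with each library left out. Pathway genes past the threshold numbered 0 in M-LMSCs against A-LMSCs, 5 with the replicate block and 0 to 5 with each library left out, and 0 to 2 with each library left out in M-LMSCs against PM-LMSCs; 0 passed in PM-LMSCs against A-LMSCs under any setting. Where a stage was left with 1 library, it was assumed to vary like the others. The count of members past the threshold in M-LMSCs against A-LMSCs was 0 with no filter and 0 with only the stages compared, where 3 and 1 of all genes passed. With the block it was 1, where 403 of all fitted genes passed. In M-LMSCs against PM-LMSCs it was 1 with the block, where 43 of all fitted genes passed. Nothing is read from the counts of members. Over 12 settings the log2 difference between M-LMSCs and A-LMSCs ran from 1.68 to 3.29 for Slc7a11, the latter with a pseudocount of 0.1. For Nfe2l2 it ran from 0.27 to 0.37. The block, no filter, only the stages compared and leaving out a PM-LMSC library cannot change this difference. The genes were also chosen on these values, so the unchanged sign is no support. Of 360 differences of members under other settings, 30 changed sign, each for a difference of at most 0.19 in size. Many of the 360 could not change by design, so this share does not measure stability. Of 1521 differences of named pathway genes, 15 newly passed the threshold, for 8 genes (Anpep, Ddit3, Ftl1, Gsta4, Htatip2, Mgst1, Sat1 and Sesn3). Among the fitted pathway genes the block changed only calls of Anpep, Sesn3, Gsta4, Mgst1 and Sat1, and Anpep was fitted only because it was high in M-LMSCs. With 2 libraries per stage and 11.9 to 70.9 estimated fragments in the earlier stages, the fold of Slc7a11 is imprecise.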
